A study of Mus musculus with 10 samples.

Results

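Gli2 and Lima1 were followed through 10 lists of chromatin immunoprecipitation (ChIP-seq) peaks from R1E cells, a line of mouse embryonic stem cells. Their members are the 268 peaks, of 543779 in all lists, that overlap the mm9 span of either gene with 20 kb added on each side. The Gli2 span is chr1:120730700-120950200 (219.5 kb) and holds 147 of these peaks with its flanks. The Lima1 span is chr15:99608000-99707000 (99.0 kb) and holds 121. Both genes were chosen by measured values of these same libraries: windows of 100 kb there had less Pol II length and less H3K79me2 length after Adriamycin. What the Pol II and H3K79me2 lists show there is therefore a description, and nothing was tested.

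The untreated cells and the cells given 0.5 uM Adriamycin for 8 h were of a mixed C57BL/6 and 129Sv background, under 20 passages, and kept in serum with leukemia inhibitory factor. Adriamycin is a topoisomerase II poison that breaks DNA. The 5 targets were RNA polymerase II (Pol II), dimethylated lysine 79 of histone H3 (H3K79me2), H3K4me3, H3K27me3 and the RNA-binding protein hnRNP L, with 1 library per target and condition. There are no replicates, so no difference below has a replicate check. The labels do not say whether the libraries share a culture. The labelled cell type was not checked against marker genes, because no annotation on mm9 was used here. Whole lists ranged from 1022 to 97639 peaks, and read depth is unknown. The length under Pol II peaks over the whole genome in the Adriamycin list was 70.7% of that in the untreated list. For H3K79me2 this share was 93.7%, for H3K4me3 91.6% and for H3K27me3 74.6%. A lower depth or a weaker precipitation and fewer bound molecules per cell cannot be told apart in such lists.

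Gli2 encodes a zinc finger transcription factor that acts as the main activator at the end of the Hedgehog pathway. Without ligand the receptor Patched holds back Smoothened, and Gli proteins are cut or degraded. When ligand binds, full-length Gli2 enters the nucleus and switches on Hedgehog targets. Lima1, also named Eplin, encodes a LIM domain protein that bundles and stabilises actin filaments and ties them to cadherin junctions. In transcribed genes H3K4me3 sits at the start, H3K79me2 spreads from the start into the body behind the elongating polymerase, and Pol II often piles up at the start and past the end.

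Both genes are read from the higher to the lower coordinate, by the strand of their RefSeq promoter entries (GRCm38.p6; 2 of 2 genes matched). "Upstream" and "downstream" below follow that direction, and distances run from the upstream end of the mm9 span. The 250 bases before the start of each RefSeq entry are shown because H3K4me3, the mark of starts, is described below and the 2 sequences differ in base composition. By its distance from a neighbour, given below, the Lima1 entry matches an H3K4me3 peak inside the gene and not the one at the upstream end of the span. This holds only if a peak in the downstream flank marks the neighbour's start, and the entry was not placed on mm9. Capitals mark the dinucleotide CG, which reads the same on both strands. The Gli2 entry covers chr1:119053620-119053869 and the Lima1 entry chr15:99820150-99820399, both on the minus strand of GRCm38.p6, which is another build than that of the peaks.
Gli2 promoter: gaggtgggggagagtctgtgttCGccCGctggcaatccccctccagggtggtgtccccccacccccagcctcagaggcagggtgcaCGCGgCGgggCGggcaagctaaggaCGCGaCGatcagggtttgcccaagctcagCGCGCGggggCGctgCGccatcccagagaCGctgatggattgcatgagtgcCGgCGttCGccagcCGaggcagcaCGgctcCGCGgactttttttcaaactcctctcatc
Lima1 promoter: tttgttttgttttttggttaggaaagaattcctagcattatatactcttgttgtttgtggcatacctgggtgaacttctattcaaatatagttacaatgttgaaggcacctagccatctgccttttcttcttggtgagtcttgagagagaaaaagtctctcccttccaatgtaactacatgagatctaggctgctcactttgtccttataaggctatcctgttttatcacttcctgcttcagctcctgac
The Gli2 sequence held 22 CG and 67.2% G or C. The Lima1 sequence held 0 CG and 39.2% G or C. The median of all 32851 promoter entries was 6 CG and 52.4% G or C, and 92.1% of entries held at least 1 CG. At least 22 CG were found in 14.8% of entries.

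Over Gli2, Pol II peaks were dense in untreated cells and sparse after Adriamycin. The untreated list held 74 Pol II peaks that covered 72.0 kb, or 27.7% of the 259.5 kb looked at. The Adriamycin list held 13 peaks that covered 9.91 kb, or 3.82%. The Adriamycin length was 13.8% of the untreated one, a log2 ratio of -2.74 with 1 kb added to each length. Of the 74 untreated peaks, 64 had no Pol II peak overlapping them by at least 1 bp after Adriamycin, which is 86.5% (exact Clopper-Pearson 95% interval 76.5 to 93.3%, for counting error only). In the whole untreated Pol II list 48.0% of peaks had no such partner. Since Pol II length chose the gene, nothing is read from this share. Of the 13 Adriamycin peaks, 3 had no untreated partner, or 23.1%, and in the whole Adriamycin list this was 26.1%.

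**Figure D1:**
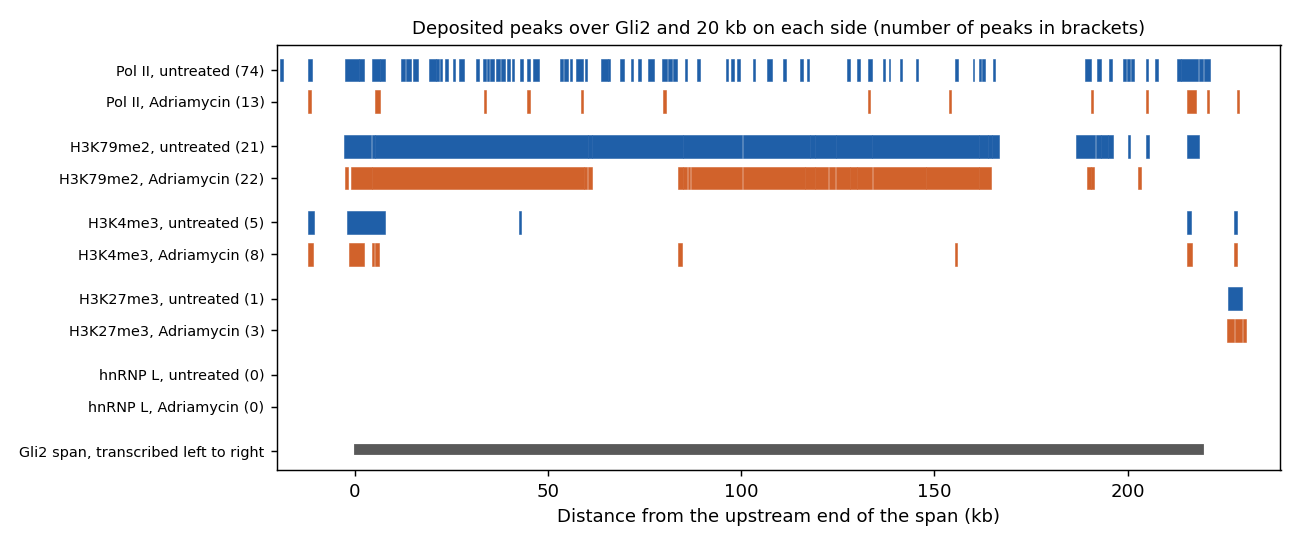
Peaks of the 10 libraries over Gli2, each bar 1 peak from its start to its end, against the distance in kb from the upstream end of the span; blue is untreated and orange Adriamycin. The 74 untreated Pol II peaks run along the gene, the 13 Adriamycin peaks are scattered, and H3K79me2 has an open stretch of about 22.1 kb in the Adriamycin list.

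At the start of Gli2 the Pol II peak of untreated cells was at 120948961-120952738, with 3778 bp and a deposited score of 649.73. The score is the authors' value from the peak caller, and a value in one list is set beside a value in another with no change read from it. No Adriamycin Pol II peak overlapped this start peak. It was the highest-scoring of the 64 peaks without a partner. The nearest Adriamycin peak inside the gene was at 120943687-120944976 (score 155.99), which was the highest score Pol II reached at Gli2 after treatment. It was matched by an untreated peak of 1934 bp (score 151.55).

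The highest-scoring untreated Pol II peak at Gli2 was not at its start but near its downstream end. It spanned 120732129-120736462, with 4334 bp and a score of 1601.5, and 1.10% of all untreated Pol II peaks were as long. The Adriamycin list held a peak of 2198 bp there (score 71.5). Just past the end of the span an untreated peak of 1479 bp (score 860.6) was matched by an Adriamycin peak of 509 bp (score 60.43). All 10 pairs of Pol II peaks that matched 1 to 1 at Gli2 were narrower after Adriamycin, with a median difference of -450 bp. The median width of all Pol II peaks was 694 bp untreated and 691 bp after Adriamycin. Pairs over the whole lists were not counted and Pol II length chose the gene, so nothing is read from this count. At both ends of the gene the untreated peaks were thus the strongest, and the downstream ones kept a smaller partner while the start did not.

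When the span was cut into 3 equal parts of 73.2 kb, the upstream part held 32.9 kb of untreated Pol II and 3.26 kb of treated. The middle part held 16.7 kb and 1.14 kb. The downstream part held 16.4 kb and 3.67 kb, of which 2198 bp lay in the peak near the end. Untreated Pol II was thus densest in the upstream part, and the Adriamycin list held less in each of the 3.

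H3K79me2 covered most of Gli2 in both conditions. Untreated cells had 21 H3K79me2 peaks over 181.8 kb, and Adriamycin-treated cells 22 peaks over 145.0 kb, which is 79.8% of the untreated length (log2 ratio -0.32). Of the 21 untreated peaks 7 had no partner, or 33.3% (interval 14.6 to 57.0%), beside 19.0% in the whole untreated list. These 7 were weak, with a median score of 103.28 and none above 224.72. Of the 22 Adriamycin peaks 1 had no partner, or 4.55%, beside 18.0% in the whole list. The longest peak at Gli2, from 120889858 to 120944780 in untreated cells (54.9 kb), was 99.5% covered after Adriamycin. Only 0.0111% of untreated H3K79me2 peaks were as long. The longest Adriamycin peak was at 120890878-120945715 (54838 bp, score 1603.54). The highest-scoring untreated peak lay over the start, at 120945818-120952917 (7100 bp, score 3100). Adriamycin peaks had the same score at 120945762-120951018 (5257 bp), also over the start, and at 120849900-120863173 (13274 bp).

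A single stretch made up most of the H3K79me2 length that was found in untreated cells alone. The untreated peak at 120865319-120888762 spanned 23.4 kb with a score of 1553.36, and 5.65% of it was covered after Adriamycin, by a peak of 1325 bp at its downstream edge. The uncovered stretch of 22.1 kb accounts for more than any other of the 37.8 kb under untreated peaks alone, the next being 3.10 kb. Left out of both lists, the 23.4 kb changed the Gli2 H3K79me2 lengths to 158.4 kb and 143.7 kb, so that the Adriamycin list had 90.7% of the untreated length. The stretch was chosen after seeing that it was uncovered, so a share closer to that of the whole lists follows from the choice, and the value only gives the part it had in the difference. Long peaks that were so little covered were rare. Of 365 untreated H3K79me2 peaks of at least 20 kb, 2 were covered to under 10% after Adriamycin, and of 217 such Adriamycin peaks 3 were covered to under 10% in untreated cells. Inside the stretch Pol II had 9 untreated peaks over 9.32 kb and 1 Adriamycin peak over 0.621 kb. The Adriamycin list also held an H3K4me3 peak at its downstream edge, at 120865409-120866549 (score 123.34), with no untreated partner. Whether the peak caller left out a region there was not tested.

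Places where Pol II peaks had no partner were also sorted by H3K79me2. Of the 64 untreated Pol II peaks without a partner, 59 lay at an untreated H3K79me2 peak, and 46 of these 59 also lay at an H3K79me2 peak after Adriamycin. In the whole series this last share was 85.8% (13958 of 16273 peaks), so Gli2 does not stand above it. Those 16273 were out of 38905 untreated Pol II peaks without a partner. Genes chosen for losing both targets hold both in untreated cells, so nothing is read from the 59 of 64. Of the 13 that lay at H3K79me2 before and not after, 8 were inside the stretch of 23.4 kb. Outside the stretch 46 of 51 lay at H3K79me2 in both conditions. The stretch was chosen for its missing H3K79me2, so a higher share outside it follows from the choice. At Lima1 19 of the 35 Pol II peaks without a partner lay at untreated H3K79me2, and 14 of these 19 also after Adriamycin.

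H3K4me3 at the start of Gli2 was broad in untreated cells and split after Adriamycin. The untreated peak at 120942394-120952095 spanned 9702 bp at the ceiling of the score scale (3100), and 0.164% of untreated H3K4me3 peaks were as long. The Adriamycin list had 3 peaks there. They were 3788 bp at the ceiling, 1220 bp (score 2065.54) and 757 bp (score 232.14). The part over the start was thus kept, where Pol II had no peak. At the downstream end, under the strongest untreated Pol II peak, H3K4me3 had a peak of 1138 bp in untreated cells (score 733.08) and of 1297 bp after Adriamycin (score 770.83). A further pair lay upstream of the start, with 1469 bp (score 621.78) and 1257 bp (score 315.28), each with a Pol II peak at it. In all H3K4me3 covered 13.9 kb untreated (5 peaks) and 10.7 kb treated (8 peaks). Of the 5 untreated peaks 1 had no partner, or 20.0%, beside 14.5% in the whole list, and of the 8 Adriamycin peaks 2 had none, or 25.0%, beside 15.8%.

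H3K27me3, the Polycomb mark, was found at Gli2 only in the flank past its downstream end, among the peaks listed. It had 1 untreated peak of 3696 bp (score 176.56) at 120720593-120724288. After Adriamycin it had 3 peaks of 667 to 1852 bp that covered 4.33 kb, with scores of 112.52 to 340.71. No list held an H3K27me3 peak inside the Gli2 span. No hnRNP L peak was listed at either gene.

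Over Lima1, Pol II differed in the same direction but kept its peak at the start. Untreated cells had 43 Pol II peaks that covered 36.4 kb, or 26.2% of the 139.0 kb looked at. After Adriamycin there were 9 peaks over 7.91 kb, or 5.69%. The Adriamycin length was 21.7% of the untreated one (log2 ratio -2.07). Of the 43 untreated peaks 35 had no partner, or 81.4% (interval 66.6 to 91.6%), beside the 48.0% of the whole list, and again the gene was chosen on this contrast. All 9 Adriamycin peaks had an untreated partner.

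**Figure D2:**
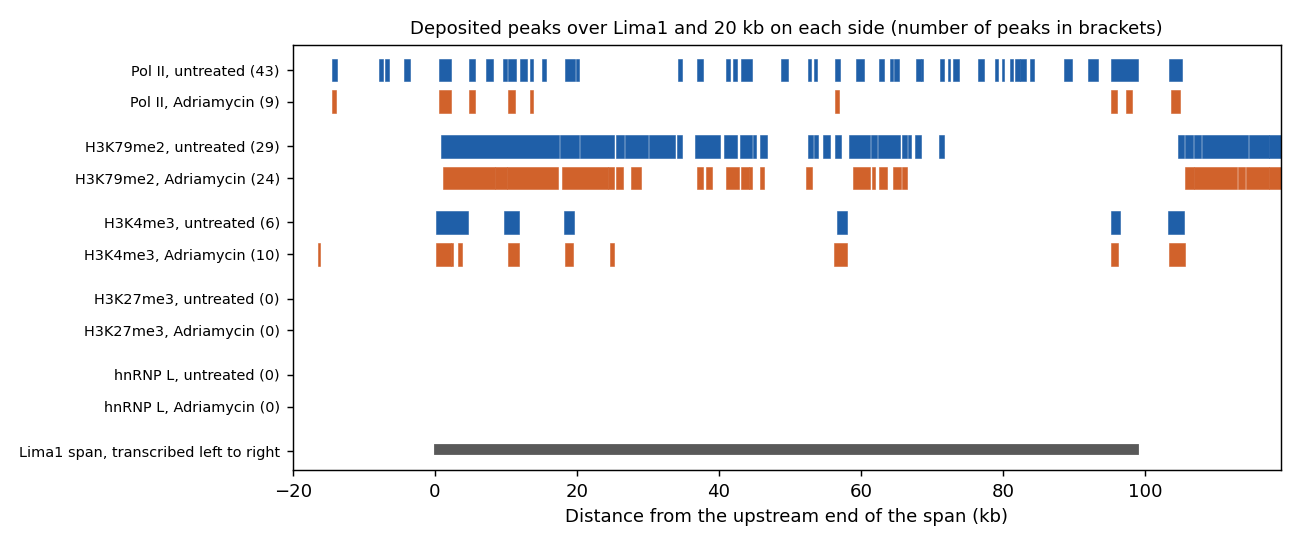
Peaks of the 10 libraries over Lima1, each bar 1 peak from its start to its end, against the distance in kb from the upstream end of the span; blue is untreated and orange Adriamycin. The 9 Adriamycin Pol II peaks lie near the 2 ends, except 1 in the middle at an H3K4me3 peak, and the H3K79me2 block past the downstream end is alike in both lists.

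At the start of Lima1 the untreated Pol II peak at 99704670-99706420 had 1751 bp and a score at the ceiling of 3100. The Adriamycin peak there had 1657 bp (score 1182.27), so its length was close to the untreated one. The longest untreated Pol II peak was at the downstream end, as in Gli2. It spanned 99608002-99611866 with 3865 bp, also at the ceiling, and 1.48% of untreated Pol II peaks were as long. After Adriamycin 2 shorter peaks lay there, of 759 bp (score 316.69) and 828 bp (score 126.28). Of the peaks without a partner the highest-scoring was in the gene body, at 99662354-99663958 (score 470.15).

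The body of Lima1 held few Adriamycin Pol II peaks. In the upstream part, 1 of 3 equal parts of 33.0 kb, untreated Pol II covered 9.43 kb and treated Pol II 3.90 kb. In the middle part it covered 9.49 kb (13 peaks) and 0.593 kb (1 peak), and in the downstream part 13.0 kb (15 peaks) and 1.59 kb (2 peaks). The single peak of the middle part, at 99650110-99650702 (score 69.72), lay at an H3K4me3 peak inside the gene. Of the 9 Adriamycin Pol II peaks at Lima1 5 lay at H3K4me3 (55.6%), beside 7 of 43 untreated ones (16.3%). At Gli2 these were 4 of 13 (30.8%) and 7 of 74 (9.46%). In the whole lists they were 37.2% after Adriamycin and 35.1% in untreated cells. The genes were chosen for less Pol II length, so which peaks are left depends on that choice. With so few Adriamycin peaks as well, nothing is read from these shares. All 7 pairs of Pol II peaks matched 1 to 1 at Lima1 were narrower after Adriamycin, with a median difference of -169 bp. As at Gli2, pairs over the whole lists were not counted, and nothing is read from this count.

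H3K79me2 covered the upstream part of Lima1 and thinned out along the gene. Untreated cells had 29 peaks over 68.0 kb and Adriamycin-treated cells 24 over 51.4 kb, which is 75.5% (log2 ratio -0.40). Of the 29 untreated peaks 10 had no partner, or 34.5% (interval 17.9 to 54.3%), beside 19.0% in the whole untreated list. Of the 24 Adriamycin peaks 0 had no partner, beside 18.0% in the whole list. The 10 were weak, with scores of at most 167.5. No single stretch stood out as at Gli2. The longest under an untreated peak alone was 3.75 kb, at 99673154-99676902. The block at the start was 1 untreated peak of 16606 bp (score 2619.81), and 3 Adriamycin peaks of 7114, 1739 and 7348 bp lay in its place. The highest-scoring peak of each list lay in the downstream flank. It was at 99592631-99599102 in untreated cells (6472 bp, score 2961.23) and at 99594059-99600159 after Adriamycin (6101 bp, score 3100). Over the whole lists H3K79me2 had 63053 untreated peaks with a median of 1143 bp. The Adriamycin list had 71959 with a median of 934 bp.

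The H3K79me2 difference at Lima1 was larger further from the start as a share of the length, but not in kb. The upstream part held 31.3 kb untreated and 25.9 kb treated, or 82.8%. The middle part held 20.4 kb and 11.7 kb, or 57.7%. The downstream part held 2.39 kb and 0.408 kb, or 17.1%. Its untreated length came from 4 weak peaks, with scores of 53.64 to 167.5. In kb the differences were -5.37, -8.62 and -1.98, in the same order. At Gli2 the same shares were 83.7%, 84.7% and 61.6%, with the 23.4 kb stretch falling across the first 2 of these parts. In both genes the downstream part thus had the lowest share. H3K79me2 length chose the genes, so no trend along a gene is read from these shares.

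**Figure D3:**
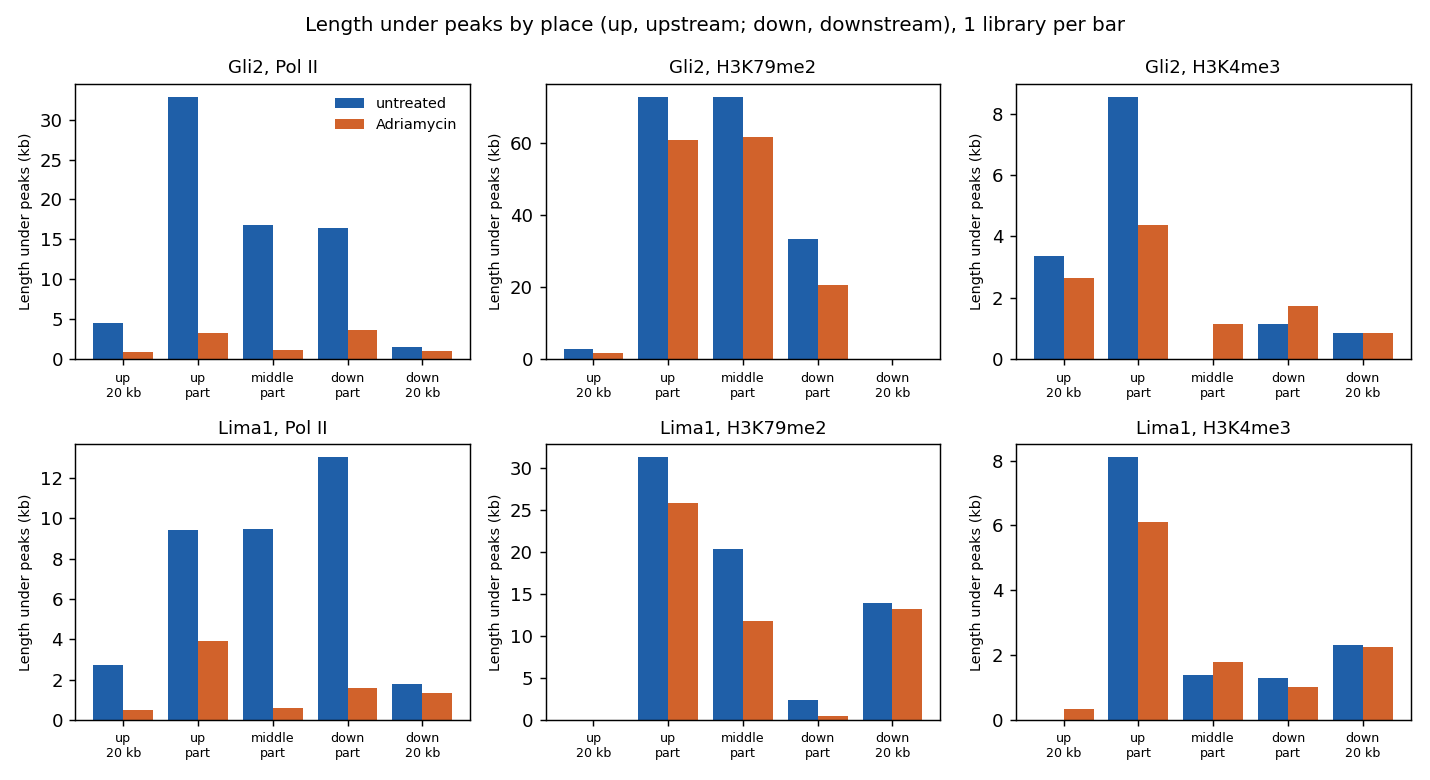
Length under peaks in kb (each vertical axis starts at 0 and has its own scale) in the 20 kb upstream, in 3 equal parts of the span and in the 20 kb downstream, for Pol II, H3K79me2 and H3K4me3 at Gli2 (top) and Lima1 (bottom); each bar is 1 library, so there are no error bars. Pol II is shorter after Adriamycin in all places shown, and H3K79me2 past the downstream end of Lima1 is nearly equal (14.0 and 13.3 kb).

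Past the downstream end of Lima1 the marks differed little. That flank held a block of H3K79me2 with 14.0 kb untreated and 13.3 kb treated, or 95.2%. It also held an H3K4me3 peak at the ceiling in both lists, with 2304 and 2237 bp. A Pol II peak lay there in both lists, with 1773 bp (score 897.01) and 1342 bp (score 462.78). In RefSeq (GRCm38.p6) the next coding gene on that side is Cers5, which encodes a ceramide synthase, and the next on the other side is Fam186a. For Gli2 the neighbours are Tfcp2l1, a transcription factor of the pluripotent state, and Inhbb, an inhibin and activin subunit. No peak was assigned to a neighbour, since no mm9 annotation was used.

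H3K4me3 at Lima1 had 6 untreated peaks over 13.1 kb and 10 Adriamycin peaks over 11.5 kb. Of the 6 untreated peaks 0 had no partner, beside 14.5% in the whole list, and of the 10 Adriamycin peaks 2 had none, or 20.0%, beside 15.8%. At these small numbers the shares do not stand apart from those of the whole lists. At the start the untreated peak at 99702269-99706845 spanned 4577 bp at the ceiling. After Adriamycin 3 peaks lay there, of 2069 bp at the ceiling, 635 bp (score 50.5) and 267 bp (score 61.66). As at Gli2, the start kept a peak at the ceiling and the mark downstream of it was broken up. The whole H3K4me3 list also had more peaks after Adriamycin (41705, against 38421 untreated). Its median width was 1060 bp, against 1271 bp untreated. Such splitting was therefore not shown to be particular to the 2 genes. At the downstream end H3K4me3 had 1295 bp (score 740.51) and 1015 bp (score 458.68) at the long Pol II peak. H3K4me3 and the longest untreated Pol II peak thus met near the downstream end of both genes.

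Among the H3K4me3 pairs matched 1 to 1 at Lima1, a peak inside the gene was the one that was wider after Adriamycin. It spanned 99649030-99650406 in untreated cells (1377 bp, score 89.88) and 99648973-99650764 after Adriamycin (1792 bp, score 606.95). The other 4 pairs were narrower. A Pol II peak lay at it in both conditions, with 798 bp (score 240.92) and 593 bp (score 69.72). In mm9 the untreated peak lay 45.1 to 48.8 kb from the H3K4me3 peak in the downstream flank, and the peak at the Lima1 start lay 98.4 to 105.3 kb from it. In GRCm38.p6 the RefSeq promoter entries of Cers5 and Lima1 are 47.6 kb apart. That distance lies within the range of the peak inside the gene and of no other untreated H3K4me3 peak in the span, if the flank peak marks the Cers5 start. The sequence printed above was not itself placed on mm9, and no sequence is shown for the start at the upstream end. RefSeq also lists Gm25897 (a small nuclear RNA), Gm4468 (a pseudogene) and Gm17057 (a long noncoding RNA) inside Lima1, and Gm51642 with the microRNA gene Mir6346 inside Gli2. ChIP peaks carry no strand, so signal of these and of the host gene cannot be told apart.

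**Figure D4:**
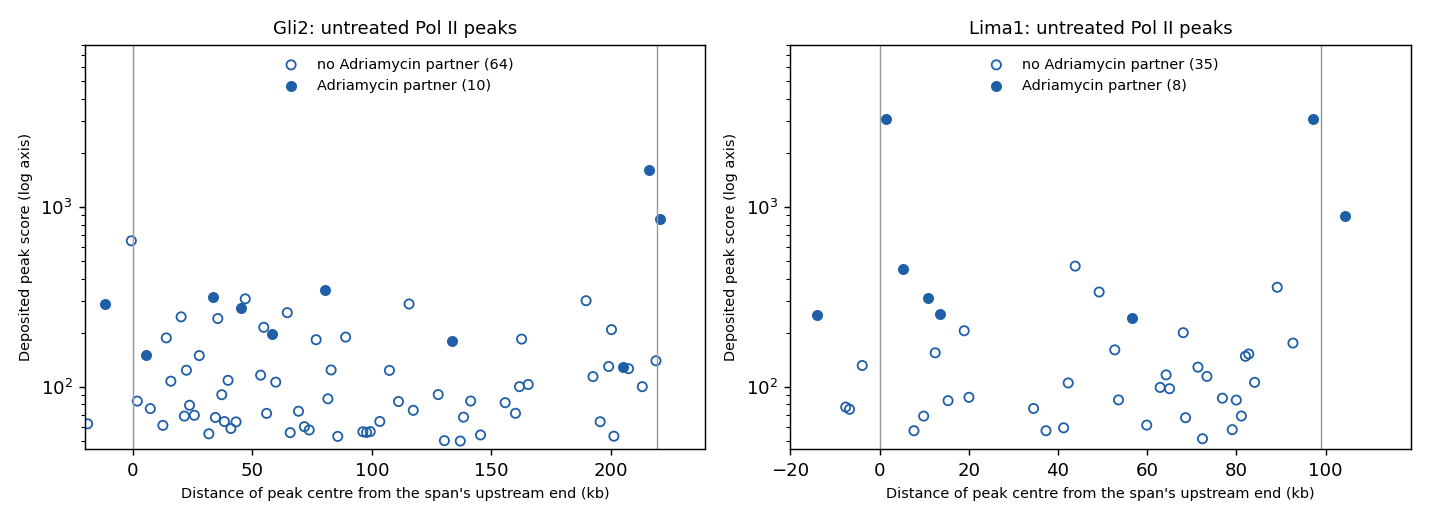
Deposited score (log axis) of each untreated Pol II peak at Gli2 and Lima1 against the distance of its centre from the upstream end of the span in kb; filled points have an Adriamycin partner, open points have none, and grey lines mark the ends of the span. At Gli2 the start peak (score 649.73) is open and the peaks at the downstream end are filled, and at Lima1 both peaks at the ceiling are filled.

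By median score, peaks without a partner were weaker than those with one in both genes. The same medians were not taken over the whole lists, so this was not shown to be particular to these genes. Untreated Pol II peaks at Gli2 had a median score of 83.585 without a partner and 282.595 with one. At Lima1 these were 97.9 and 381.565. At Gli2 38 of 74 untreated Pol II peaks scored at least 100, against 1 of 13 after Adriamycin. At Lima1 these were 24 of 43 and 6 of 9. The share at this score was not taken over the whole Pol II lists. Their median scores were 121.25 untreated and 101.04 after Adriamycin. Pol II length chose the genes, so nothing is read from these counts. At a score of at least 100 the Pol II lengths at Gli2 were 47.0 and 1.29 kb (untreated first), and at Lima1 25.6 kb and 6.39 kb. With equal numbers of top-scoring Pol II peaks from both lists, the lengths were 55.6 kb and 9.91 kb at Gli2 and 30.9 kb and 7.91 kb at Lima1.

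The genes were picked for Pol II and H3K79me2 together, and the windows of 100 kb show that Pol II length differed far more than H3K79me2 length. Among 3687 windows with at least 5 kb of both targets in untreated cells, 12 (0.325%) had both lengths at least halved after Adriamycin, and none of the 5 windows on Gli2 or Lima1 was among them. By length in kb, 30 windows (0.814%) had both targets shorter by at least 10 kb, and 3 of the 5 were among those. This difference in kb is of the kind that chose the genes, and nothing is read from it. The window at chr1:120800001-120900000 had 24.8 kb of Pol II untreated and 1.75 kb treated, with 99.4 and 76.3 kb of H3K79me2. The window at chr1:120700001-120800000 had 17.9 and 4.64 kb of Pol II, with 29.6 and 16.8 kb of H3K79me2. The Lima1 window at chr15:99600001-99700000 had 31.0 and 4.93 kb, with 50.1 and 33.6 kb. In these 3 windows most of the Pol II length and a smaller share of the H3K79me2 length was missing from the Adriamycin lists. At chr1:120900001-121000000, over the Gli2 start, Pol II went from 36.9 to 5.71 kb while H3K79me2 was 57.2 and 56.1 kb. The other Lima1 window, with 7 kb of the span, had 6.15 and 3.78 kb of Pol II and 6.14 and 5.88 kb of H3K79me2. The window over the Gli2 start thus kept its H3K79me2 length, while most of its Pol II length was missing from the Adriamycin list. By log2 ratio of Pol II length (1 the lowest), the Gli2 windows ranked 147, 5 and 27 of 3687 in order of coordinate, and the Lima1 windows 30 and 1817. By H3K79me2 they ranked 72, 350 and 2554, and 159 and 2264. The median log2 ratio of all 3687 windows was -0.57 for Pol II and -0.09 for H3K79me2.

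**Figure D5:**
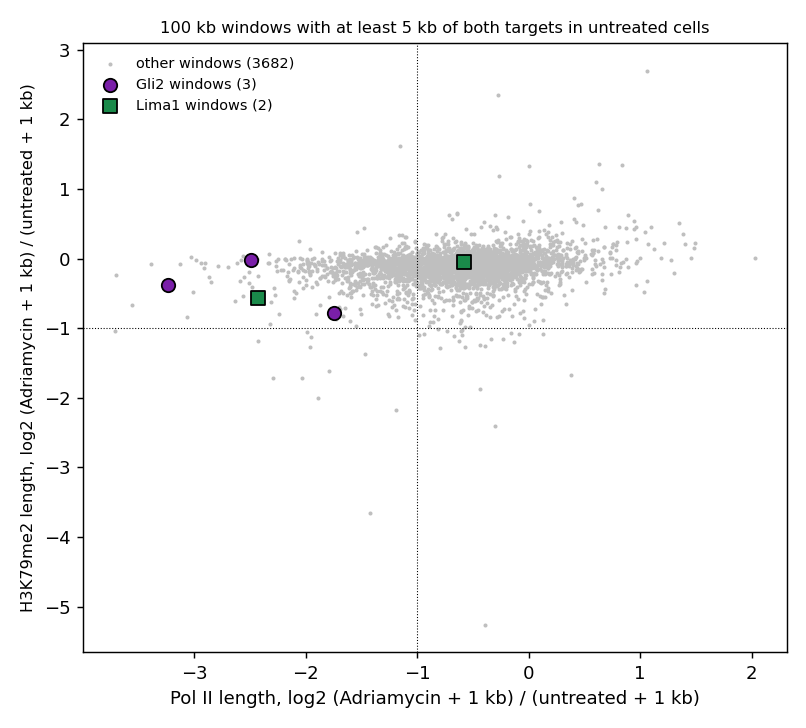
Pol II (horizontal) and H3K79me2 (vertical) log2 ratios of treated to untreated length, each length raised by 1 kb, in 3687 windows of 100 kb; purple circles are the 3 windows on Gli2, green squares the 2 on Lima1, grey points all others and dotted lines a halved length. Of the 5 coloured windows 4 lie far to the left for Pol II (-1.74 to -3.23) and none lies below -1 for H3K79me2.

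Windows beside the genes varied, and some had less of both targets too. All 3 windows past each end were looked at in the same way, and values below are untreated first. Past the downstream end of Gli2, the window at chr1:120500001-120600000 had 32.7 and 6.83 kb of Pol II and 46.2 and 42.0 kb of H3K79me2. Its neighbour at chr1:120600001-120700000 had little Pol II (2.35 and 2.79 kb) and no H3K79me2, and held 17.0 and 9.91 kb of H3K27me3. The window beyond, at chr1:120400001-120500000, had 4.53 and 4.87 kb of Pol II and no H3K79me2. Pol II was thus much shorter in 1 of these 3. Upstream of Gli2, the window at chr1:121000001-121100000 had more Pol II after Adriamycin (3.73 and 8.32 kb) and no H3K79me2. The next, at chr1:121100001-121200000, had 3.71 and 2.32 kb of Pol II and 3.42 and 3.25 kb of H3K79me2. The last, at chr1:121200001-121300000, had less of both, with 9.04 and 2.31 kb of Pol II and 9.15 and 6.18 kb of H3K79me2.

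Beside Lima1, both targets were also shorter in 1 of the downstream windows by a like share of H3K79me2. That window, at chr15:99400001-99500000, had 12.0 and 3.28 kb of Pol II and 23.3 and 17.6 kb of H3K79me2. The window nearer the gene, at chr15:99500001-99600000, had 23.2 and 11.3 kb of Pol II and 39.9 and 36.2 kb of H3K79me2. The farthest, at chr15:99300001-99400000, was nearly equal in both lists, with 7.53 and 7.33 kb of Pol II and 3.65 and 3.74 kb of H3K79me2. Upstream, the 3 windows had nearly equal H3K79me2. The first, at chr15:99800001-99900000, had 11.7 and 5.68 kb of Pol II and 51.5 and 51.0 kb of H3K79me2. The second, at chr15:99900001-100000000, had 1.36 and 1.69 kb of Pol II and 38.9 and 38.3 kb of H3K79me2. The last, at chr15:100000001-100100000, had 15.2 and 10.5 kb of Pol II and 26.6 and 28.1 kb of H3K79me2.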

How the data were processed

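ChIP-seq of 5 targets was deposited as 1 peak list per library. Per the submitters' processing notes, the tools named were CASAVA 1.8.2 and MACS 1.4.1 and the build mm9. The deposited score is the peak caller's; in MACS of this generation it is 10 times the negative log10 of a p-value, so the lowest score of 50 stands for 1e-05. Not given in the sources used here are input use, duplicate removal and read depth. How readily each library yields a peak is therefore unknown, and a shallower library gives fewer and narrower peaks.

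Coordinates are 1-based. Peak lengths were clipped to the span with 20 kb on each side. A partner is a peak for that target in the opposite condition's list with an overlap of at least 1 bp. Log2 ratios have 1 kb added to each length. With 1 library per group no test was made. Overlap and length steps were tested on simulated data. The work used matplotlib 3.10.9, SciPy 1.17.1, pandas 2.3.3, numpy 2.4.6 and Python 3.11.15.

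The members and lists were chosen with earlier results of these data known. Named peaks are the highest-scoring and longest of each list at each gene, and others were named after their values were seen. The Hedgehog, actin and marker lists were not run, since the RefSeq tables are on GRCm38.p6. Other score limits, list lengths, overlaps, spans and windows were tried.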

Additional observations from a re-analysis of the deposited data

How the results depend on the processing

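Across 71 alternative values, 63 stayed close to the reported ones (within 1.5 times for a length ratio or a count, or within the exact 95% interval for a share), 7 moved further and 1 changed sign. The limit of 1.5 times is wider than the H3K79me2 and H3K4me3 differences themselves (log2 ratios of -0.17 to -0.40). Staying close thus says little about these ratios. Intervals for shares were also wide, as with 43.0 to 85.4% for untreated H3K79me2 peaks with a partner at Gli2. Pol II and H3K79me2 were shorter after Adriamycin at both genes under each alternative tried. With a score of at least 100, the Gli2 Pol II log2 ratio was -4.39 and 2.63% of its untreated peaks had a partner. With peaks within 1 kb merged, the share of untreated H3K79me2 peaks with a partner was 40.0% at Gli2 (2 of 5) and 83.3% at Lima1 (5 of 6), since merging leaves few peaks. The 12 windows with both targets at least halved became 5 with at least 10 kb of both, 2 with 5 kb added before the ratio and 19 with a score of at least 100. The log2 ratio of H3K27me3 at Gli2 was 0.18 with 20 kb on each side and -0.50 with 50 kb, which takes in other peaks. Leaving out the 23.4 kb stretch, chosen after seeing the data, gave an H3K79me2 log2 ratio at Gli2 of -0.14 in place of -0.32. The difference in kb for windows was also added then. So were the shares of Pol II peaks at H3K4me3 and the Pol II counts inside and outside the stretch. The shares of each list that were as long as a named peak were added then too. No paired analysis was possible because each target had 1 library per condition. Unknown depth limits all lengths, and absence from a list does not show absence of the protein or mark.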
